A study of Mus musculus with 25 samples.

Results

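Cytosolic ribosomal protein genes encode the proteins of the ribosomes that translate nuclear-encoded mRNA, and 83 of them were followed here across 25 mouse hearts. They were chosen by symbol (Rps or Rpl with a number, Rplp0 to Rplp2, and Rpsa, without pseudogene names and without the S6 kinases) and by a mean level of at least 5 CPM (counts scaled to 1000000 per library) over the hearts. The symbol pattern matched 89 of the 56941 genes in the count table, and 83 of these reached the level. The set holds 34 genes of the small 40S subunit and 49 of the large 60S subunit. Rps4l, the lowest gene inside the limit, had a mean of 11.9 CPM, and Rps3a2, the highest outside it, had 4.92 CPM. Rpl6l, Rpl32l, Rpl39l, Rps12l1 and Rpl10l lay further below, between 0 and 0.885 CPM. Of the 83, 81 are annotated as protein coding, Rps3a3 as a processed pseudogene and Rps4l as a transcribed processed pseudogene. The pattern does not match Fau, Rack1 and Rpl36al, which also encode ribosomal proteins, so their values are given separately.

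The hearts came from wild-type (WT) animals or from animals labelled MCT1KO, a knockout by label of the lactate and pyruvate transporter encoded by Slc16a1. Mice had no pump, a saline pump, or Ang/PE, a pair of neurohormonal agonists given to enlarge the heart. There were 4 WT and 3 MCT1KO hearts without a pump, 6 WT and 4 MCT1KO hearts with saline, and 3 WT and 5 MCT1KO hearts with Ang/PE. Age, sex, strain, infusion time and the cells in which the transporter was deleted are not stated in the labels.

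A ribosome holds 1 copy of most of its proteins, and their mRNAs are made in near-equal supply and regulated as a group. Most of these mRNAs begin with a terminal oligopyrimidine (TOP) tract, a cytosine followed by a run of pyrimidines, through which the mTOR kinase and the RNA-binding protein LARP1 control their translation and stability. Growth of heart muscle cells needs more ribosomes, and muscle also uses its own variant of the uL3 protein, RPL3L, in place of RPL3.

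The start windows below show what the TOP rule reads, and were chosen to show members with and without a tract. Those with a tract were picked by small p from members called lower with saline than without a pump in WT hearts. The genes of a single chromosome were left out of that choice. Those without were paralogues picked by name. Each runs from 15 bases before to 15 bases from the RefSeq transcript start in mouse build GRCm38.p6, 5′ to 3′ on the gene's strand. Capitals mark the tract: a cytosine at the start and the unbroken run of pyrimidines after it, with at least 4 pyrimidines after the cytosine.
Rps15a, chr7:118116133-118116162, minus strand: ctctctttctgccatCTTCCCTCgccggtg
Rps27, chr3:90213634-90213663, minus strand: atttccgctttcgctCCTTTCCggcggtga
Rps10, chr17:27635230-27635259, minus strand: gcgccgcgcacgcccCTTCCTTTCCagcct
Rpl35, chr2:39005117-39005146, minus strand: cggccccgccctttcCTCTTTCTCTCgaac
Rpl14, chr9:120571502-120571531, plus strand: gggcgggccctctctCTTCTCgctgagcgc
Rpl35a, chr16:33056467-33056496, plus strand: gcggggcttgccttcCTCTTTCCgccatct
Rpl22, chr4:152325711-152325740, plus strand: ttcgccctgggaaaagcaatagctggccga
Rpl3l, chr17:24727811-24727840, plus strand: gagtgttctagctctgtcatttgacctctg
Rpl7l1, chr17:46782642-46782671, minus strand: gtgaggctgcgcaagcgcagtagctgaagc
Rpl22l1, chr3:28805493-28805522, plus strand: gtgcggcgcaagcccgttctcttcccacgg

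At least 1 start was listed for 61 of the 83 members (73 starts), and 13 of them (21.3%) had a tract at any of their listed starts by this rule. Among all genes with a listed start (32851 starts), 813 of 27025 (3.01%) had a tract at any of them. Where a gene had several listed starts, its window above shows a start with a tract if present. Rps15a, Rps27, Rps10, Rpl35, Rpl14 and Rpl35a had a tract, and the muscle variant Rpl3l and the paralogues Rpl22, Rpl7l1 and Rpl22l1 did not. The starts are annotated positions, not ones measured in these hearts, and the window of Rpl22l1 holds a pyrimidine run that begins 1 base after its listed start.

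Depth and RNA make-up differed between the groups. Libraries held 12216704 to 24880683 counts, and genes of the mitochondrial genome took 8.87% to 18.4% of them. The summed counts of the 83 members ranged from 110117 to 307713 per heart, and the lowest count of any member in any heart was 26, for Rps3a3. Atrial muscle markers (Myl4, Myl7 and Sln) summed to at most 5.73 CPM outside the saline groups. Within them they summed to 2.03 to 1136 CPM in WT and 1.5 to 3679 CPM in MCT1KO hearts. All 4 ventricular muscle markers were detected in every group, but their sums differed. Group medians in WT were 31081 CPM without a pump, 42603 with saline and 37708 with Ang/PE. In MCT1KO they were 39200, 35447 and 41905 CPM in the same order. The WT sums overlapped, at 29840 to 42004 CPM without a pump and 39201 to 47437 CPM with saline. The part of muscle content in the members' levels was not tested. Slc16a1 was not called between genotypes under any treatment (edgeR adjusted p 0.976 for no pump, 0.219 for saline, 0.807 for Ang/PE), so the group names below are those of the labels.

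The members covered a wide range of levels. Mean CPM ran from 11.9 to 486 with a median of 105, and Rplp0 (486), Rps2 (452), Rpsa (346), Rpl4 (323) and Rps4x (263) took the most counts. RPLP0, RPLP1 and RPLP2 form the stalk that recruits translation factors, and RPSA is a small-subunit protein also known as a laminin-binding protein. Scaled to transcript length, the highest levels were 413 CPM per kb for Rps2, 388 for Rplp1 and 358 for Rplp0. Rpl22l1 was the lowest at 11.7 CPM per kb, next to Rps4l at 12.6. The members' longest annotated transcripts had a median of 1094 nt, against 3079.5 nt over all tested genes.

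Most members rose and fell together from heart to heart. For 66 of 83, the log2 level over the 25 hearts correlated with the mean of the other members at r of 0.8 or more. All points share the library's depth and scaling, and the figure is given as a description. The 7 members with r below 0.5 were Rps4l (0.16), Rpl3l (0.21), Rpl22 (0.23), Rps3a1 (0.26), Rpl3 (0.35), Rps3a3 (0.42) and Rpl22l1 (0.43). These are the pairs of near-copies and tissue variants described at the end. The within-group SD of log2 CPM was lowest for Rpl7l1 (0.10), Rpl28 (0.13) and Rplp2 (0.13) and highest for Rpl3l (0.54), Rpl22l1 (0.71) and Rps3a3 (1.62).

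As a share of all counts, the members took 1.02%, 1.22%, 1.6% and 1.34% in the 4 WT hearts without a pump. They took 1.10%, 0.776% and 0.891% in the 3 MCT1KO hearts without a pump, and 0.836% to 1.01% (median 0.947%) in the 6 WT saline hearts. All 6 WT saline hearts therefore lay below all 4 WT hearts without a pump, while MCT1KO replicate 1 without a pump overlapped the latter. The share was 0.979%, 0.991%, 1.163% and 1.01% in MCT1KO saline hearts. It was 1.03%, 1.02% and 1.15% in WT hearts with Ang/PE and 0.901%, 1.23%, 0.900%, 0.842% and 0.899% in MCT1KO hearts with Ang/PE. In each of these 3 groups 1 heart stood above the others: replicate 3, replicate 3 and replicate 2, respectively.

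**Figure D1:**
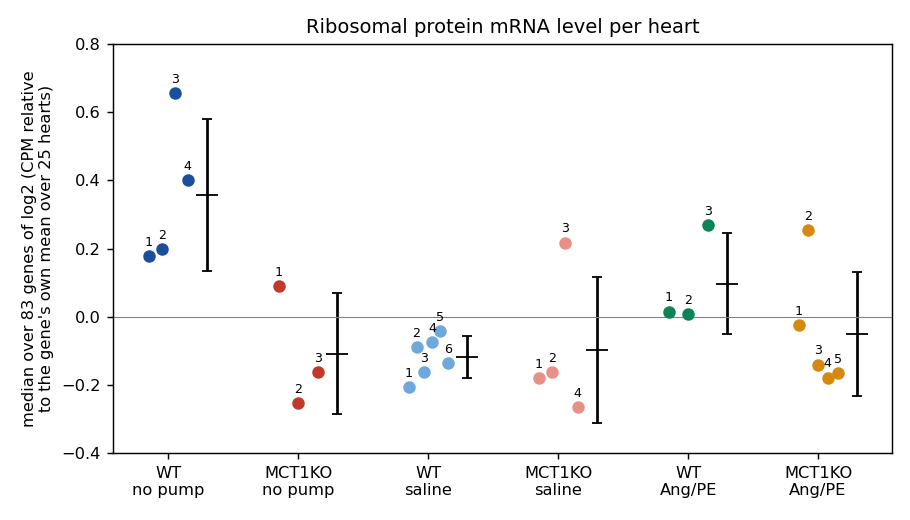
Median over the 83 genes of log2 CPM relative to each gene's own mean over the 25 hearts (y axis), by group (x axis); points are hearts with their replicate numbers, and the bar beside them is the group mean with SD. WT hearts without a pump lie between 0.18 and 0.66, all above the WT saline hearts at -0.21 to -0.04.

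After TMM scaling WT hearts without a pump again had the highest mean and WT hearts with Ang/PE the next, while the order of the other 4 groups differed from that by share. MCT1KO saline replicate 4, with a share of 1.01%, was the lowest heart on this scale at -0.26. The median member stood at 0.36 ± 0.22 (SD, n = 4) log2 units above its own mean in WT hearts without a pump. The other groups were close to each other, at -0.11 ± 0.18 (n = 3) in MCT1KO hearts without a pump, -0.12 ± 0.06 (n = 6) with saline in WT and -0.10 ± 0.21 (n = 4) with saline in MCT1KO. With Ang/PE it was 0.10 ± 0.15 (n = 3) in WT and -0.05 ± 0.18 (n = 5) in MCT1KO. WT replicate 3 without a pump was the highest heart at 0.66, with 83 of 83 members above their own mean. Replicates 1, 2 and 4 of that group had 79, 80 and 82 members above theirs.

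**Figure D2:**
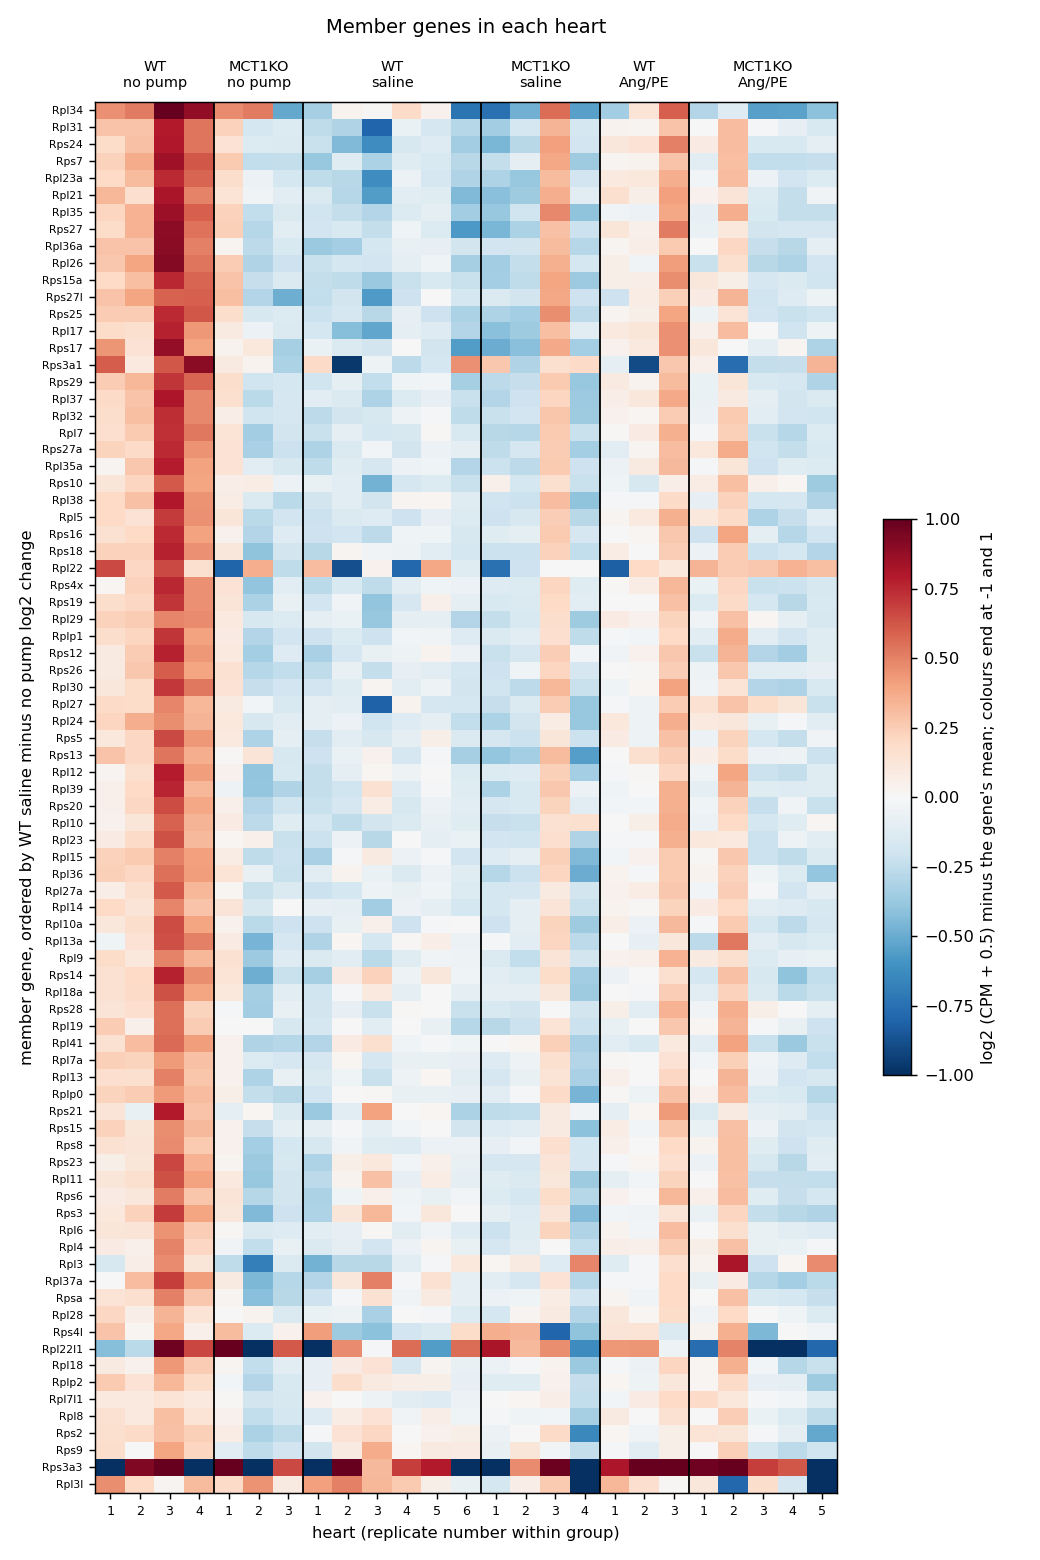
Each row is a member gene (1 of the 83 is not shown) and each column 1 heart, grouped by genotype and treatment; colour is log2 (CPM + 0.5) minus the gene's mean, ending at -1 and 1, and rows are ordered by the WT difference between saline and no pump. Most rows share the same columns of high values, foremost WT no pump replicate 3, while Rps3a3, Rpl22l1 and Rpl3l follow patterns of their own.

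The comparison of saline with no pump in WT hearts asks what goes with pump implantation alone, and it held all the edgeR calls of the set. Of the 83 members, 59 were lower with saline and 0 higher (edgeR quasi-likelihood test, Benjamini-Hochberg adjusted p below 0.05 over 17682 genes). Over all tested genes 6.61% were called in this comparison, and 4.22% were called lower. Of the 83, 82 had a negative log2 change, with a median of -0.45 (quartiles -0.57 and -0.36), against a median of 0.00 over all genes. Both subunits took part, with 23 of 34 small-subunit and 36 of 49 large-subunit genes called lower and medians of -0.51 and -0.44. For 60 members all 6 saline hearts lay below all 4 hearts without a pump, against 6.22% of all tested genes. Fewer cells of a type and less RNA per cell cannot be told apart in these heart libraries, and neither can the pump and any batch that follows the groups.

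Rpl36a, of the large subunit, was 33.8, 33.9, 52.2 and 39.4 CPM in WT hearts without a pump and 21.3 to 26.3 CPM (median 24.3) in WT saline hearts. The groups did not overlap, and the log2 change was -0.73 (SE 0.13, edgeR adjusted p 0.00797). Rpl31, which lies near the exit of the peptide tunnel, was 115, 115, 163 and 137 CPM without a pump and 54.2 to 89.9 CPM (median 78.1) with saline. Its log2 change was -0.79 (SE 0.14). Rpl23a, another protein at the tunnel exit and a docking site for the signal recognition particle, was 115, 125, 168 and 150 CPM without a pump and 65.0 to 96.0 CPM (median 83.1) with saline. Its change was -0.75 (SE 0.13).

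Rpl24, at the contact between the subunits, had hearts closer to each other within each group than Rpl36a or Rpl31. It was 46.7, 51.6, 55.3 and 50.7 CPM without a pump and 33.7 to 38.4 CPM (median 37.0) with saline, a change of -0.49 (SE 0.09). Rpl21 was 110, 98.2, 154 and 124 CPM without a pump and 59.2 to 81.1 CPM (median 75.3) with saline, a change of -0.74 (SE 0.14). These 5 genes had the smallest p in the comparison, and for all 5 no saline heart reached a heart without a pump. The lowest value in the set was that of Rpl34, at -0.89 (SE 0.25, edgeR adjusted p 0.0378).

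Of the small subunit, Rps24 had a change of -0.78 (SE 0.15), Rps27 of -0.74 (SE 0.15), Rps15a of -0.72 (SE 0.14), Rps26 of -0.51 (SE 0.11) and Rps10 of -0.55 (SE 0.11), all with edgeR adjusted p between 0.00848 and 0.0111. Rps24 was 190, 205, 291 and 242 CPM without a pump and 109 to 153 CPM (median 137) with saline. RPS26 lines the mRNA exit channel, RPS10 sits near the entry, and RPS24 and RPS27 are needed for processing of the small-subunit RNA. The more abundant Rpl4 and Rps4x also fell, by 0.31 (SE 0.09, edgeR adjusted p 0.0477) and 0.54 (SE 0.13, edgeR adjusted p 0.0169) on the log2 scale.

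The 24 members that were not called included several of the most abundant. Rplp0 was 562, 572, 648 and 596 CPM without a pump and 422 to 484 CPM (median 457) with saline. Those hearts did not overlap either, but the change of -0.37 (SE 0.12) had an edgeR adjusted p of 0.0569. Rps2 overlapped, with 499 to 549 CPM without a pump and 445 to 516 CPM with saline, and its change was -0.15 (SE 0.13). Rpsa had a change of -0.29 (SE 0.11) and the stalk gene Rplp2 of -0.20 (SE 0.09), whereas the stalk gene Rplp1 was called lower at -0.52 (SE 0.12, edgeR adjusted p 0.0153). Rps6, the S6 kinase substrate, had a change of -0.33 (SE 0.12, edgeR adjusted p 0.0863).

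By start sequence, 10 of the 13 members with a tract were called lower, with a median change of -0.54. The figures were 32 of 48 with a median of -0.43 for members with no tract at any listed start, and 17 of 22 with a median of -0.51 for members without a listed start. The difference between these classes was not tested, and each contained both large and small changes. The rule reads only the annotated start, so a member without a tract by it may still begin with one in these hearts. The classes therefore cannot show how TOP mRNAs differ from others. Rps15a and Rpl35, shown above with tracts, had changes of -0.72 and -0.74, and Rpl14, also with a tract, had -0.42. Of those shown without one, Rpl22 had a change of -0.54, as large as the median with a tract, Rpl22l1 of -0.25, Rpl7l1 of -0.16 and Rpl3l of 0.00, and none of these 4 was called. The windows with a tract were picked from called members, so the windows cannot be compared by their calls.

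The count of called members depended on the hearts and on the model. Without WT no pump replicate 3 it was 6 of 83 (median -0.37, with 0.312% of all genes called lower), and without WT no pump replicate 4 it was 27, with 0.959% of all genes called lower. With offsets for GC content and transcript length it was 20 (median -0.31, with 0.509% of all genes called lower). Across 17172 genes with both values, the change rose with length (Spearman's rho 0.20) and GC content (rho 0.34). The members' transcripts are shorter than the median tested gene, and their median GC content is higher, at 50.9% against 49.0%. With atrial and fat marker scores as covariates the count was 0, with a median of -0.44. The share of all genes called is not given for this fit or the next, so their counts are not read as particular to the members. Leaving out the 7 saline hearts with Myl7 above 10 CPM also gave 0 calls, with a median of -0.52. The 2 WT saline hearts kept there had Myl7 of 0.465 and 4.58 CPM and member shares of 0.836% and 0.905%. All 6 WT saline hearts lay below all 4 WT hearts without a pump in share. The part of atrial tissue in the result was not tested. The mitochondrial share moved too, from 14.8% to 18.4% in WT hearts without a pump to 8.94% to 14.8% in WT saline hearts, and its part in the result was not tested. Removing the mitochondrial genes before scaling left 59 members called. That fit takes out only those genes' counts, so it cannot show what part the difference in mitochondrial share has. The share of all genes called is not given for it either.

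**Figure D3:**
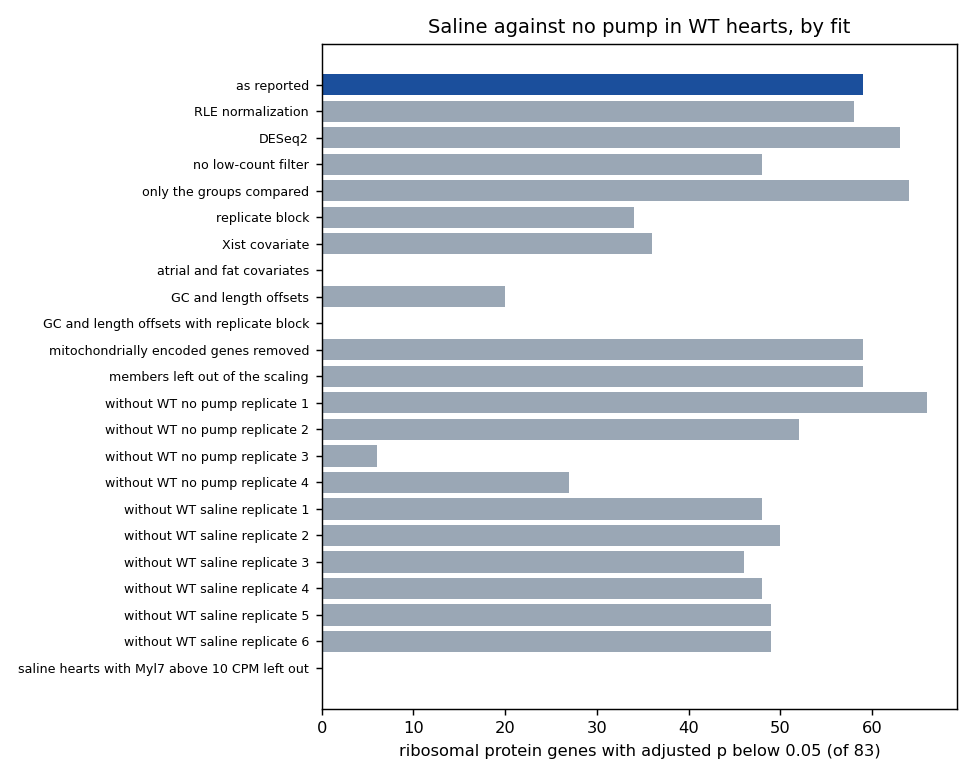
Number of the 83 genes with adjusted p below 0.05 in the WT pump comparison (x axis) under each fit (y axis), with the reported fit in blue. The shares of all genes called in each fit are not shown. The count is 59 as reported, 6 without WT no pump replicate 3, and 0 with the atrial and fat covariates, with GC and length offsets plus the replicate block, and with the Myl7-positive saline hearts left out.

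In MCT1KO hearts the same pump comparison showed no called member. Of the 83, 45 were higher and 38 lower with saline, with a median change of 0.01 (-0.09 to 0.11 when each heart was left out). Of these, 1 member had an unadjusted p below 0.05, in the higher direction, against 7.43% of all genes (0 called by DESeq2, and 0.00566% of all genes called by edgeR). That member was Rpl3, with 100, 74.2 and 108 CPM without a pump and 121, 127, 109 and 167 CPM with saline, a change of 0.48 (SE 0.21, edgeR adjusted p 0.348). The groups did not overlap. Rpl34 had a change of -0.44 (SE 0.30) and Rpl3l of -0.51 (SE 0.35). Rpl36a was 28.2, 23 and 24.8 CPM without a pump and 24.1, 24.3, 34.6 and 22.6 CPM with saline, a change of 0.06 (SE 0.15).

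The pump difference was then compared between the genotypes, by the interaction term. For 81 of 83 members the term was positive, with a median of 0.48 against 0.03 over all genes. A positive term means that the log2 change with saline was greater in MCT1KO than in WT hearts. The term shares its WT hearts without a pump with the WT pump comparison, so it is not independent of that comparison. None passed adjustment with edgeR (0.00566% of all genes did), 60 had an unadjusted p below 0.05 in that direction, against 8.86% of all genes, and DESeq2 called 5 higher, against 0.877% of all genes. The smallest p belonged to Rpl36a at 0.79 (SE 0.20, edgeR adjusted p 0.122), Rps27l at 0.81 (SE 0.23) and Rps26 at 0.58 (SE 0.17). Without WT no pump replicate 1 the count called higher was 17, against 1.51% of all genes. Without MCT1KO no pump replicate 1 it was 1, against 0.127% of all genes. With the Myl7-positive saline hearts left out, which leaves 1 MCT1KO saline heart (replicate 3), the median term was 0.81 and the median change with saline in MCT1KO was 0.31.

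Between genotypes without a pump, most members had lower levels in MCT1KO hearts, with adjusted calls by DESeq2 but not by edgeR. Of 83, 82 had a negative log2 change with a median of -0.48 against 0.00 over all genes. None was called by edgeR (0.0% of all genes were), and 77 had an unadjusted p below 0.05, against 6.74% of all genes. DESeq2 called 28 lower, against 0.221% of all genes. For 56 members the 3 MCT1KO hearts lay below all 4 WT hearts, against 6.47% of all genes. This comparison shares its WT hearts with the WT pump comparison, so the 2 are not independent.

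Rpl36a had the smallest p here too, with 28.2, 23 and 24.8 CPM in MCT1KO against 33.8, 33.9, 52.2 and 39.4 CPM in WT, a change of -0.65 (SE 0.15, edgeR adjusted p 0.227). Rps18, at the head of the small subunit, was 100, 70.0 and 81.6 CPM in MCT1KO and 109, 109, 158 and 127 CPM in WT, a change of -0.58 (SE 0.15). Rpl37 was 63.3, 46.6 and 50.1 CPM in MCT1KO and 64.6, 68.7, 99.4 and 78.9 CPM in WT, a change of -0.55 (SE 0.14). In all 3 genes MCT1KO replicate 1 was the nearest to the WT hearts. The median without WT no pump replicate 3 was -0.37, and with GC and length offsets it was -0.32.

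With saline the genotypes were close. Of 83 members, 50 were higher and 33 lower in MCT1KO, with a median of 0.02 (-0.08 to 0.09 when each heart was left out). With the Myl7-positive saline hearts left out, which leaves 1 MCT1KO saline heart, the median was 0.36. Neither edgeR nor DESeq2 called any, and 0.0% of all genes were called by edgeR. None had an unadjusted p below 0.05, where 8.43% of all genes were higher and 8.62% lower at that level. Rpl3 had a change of 0.30 (SE 0.17) and Rpl3l of -0.52 (SE 0.31). Under Ang/PE, 78 of 83 were lower in MCT1KO with a median of -0.15, again with none called by either tool (0.0% of all genes called by edgeR). The median was -0.07 without WT Ang/PE replicate 3 and -0.23 without MCT1KO Ang/PE replicate 2. No member had an unadjusted p below 0.05, where 3.99% of all genes were higher and 2.92% lower. The smallest p were those of Rps27 at -0.34 (SE 0.17), Rpl37 at -0.27 (SE 0.13) and Rpl26 at -0.32 (SE 0.16). Rps27 was 71.5, 68.0 and 94.4 CPM in WT and 62.7, 70.5, 57.7, 58.2 and 58.4 CPM in MCT1KO, so the groups overlapped at replicate 2.

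**Figure D4:**
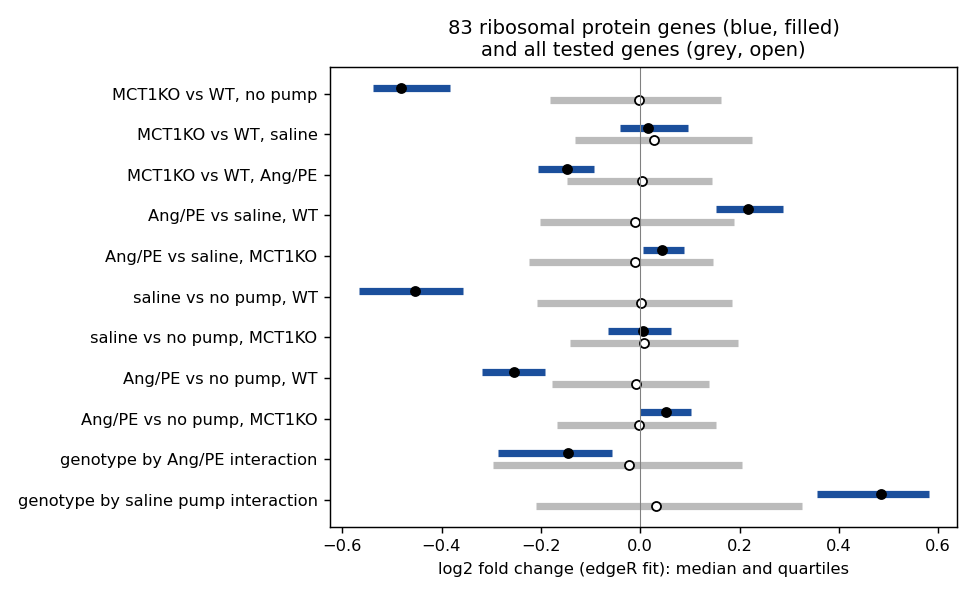
Median (points) and quartiles (bars) of the log2 fold change in each of the 11 comparisons, for the 83 genes (blue, filled) and for all tested genes (grey, open). The members' medians stand furthest from 0 where WT hearts without a pump enter: -0.45 with saline, -0.48 for MCT1KO without a pump and 0.48 for the pump interaction.

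Ang/PE against saline compares hearts given the agonists with hearts given saline, and only saline hearts held high levels of atrial markers. These summed to 2.03 to 1136 CPM (median 327) in WT saline hearts and 1.72 to 1.97 CPM in WT hearts with Ang/PE. Over all genes the WT change fell with GC content (Spearman's rho -0.32). The part of atrial tissue or GC content in the members' difference was not tested. In WT hearts 74 of 83 members were higher with Ang/PE, with a median of 0.22 against -0.01 over all genes. The median was 0.13 without WT Ang/PE replicate 3 and 0.12 with the Xist level as a covariate. None was called by edgeR (0.017% of all genes were), 28 had an unadjusted p below 0.05 against 9.47% of all genes called higher at that level, and DESeq2 called 3, against 2.07% of all genes. For 30 members the 3 Ang/PE hearts lay above all 6 saline hearts, against 6.39% of all genes. When only the groups compared were fitted, 12 members were called higher, against 3.19% of all genes.

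Rps24 was 181, 185 and 237 CPM with Ang/PE and 109 to 153 CPM (median 137) with saline in WT hearts, a change of 0.58 (SE 0.16, edgeR adjusted p 0.0782). Rpl17 had a change of 0.50 (SE 0.15) and Rpl21 of 0.49 (SE 0.15). For Rpl21 the hearts were 97.8, 91.1 and 116 CPM with Ang/PE, above the 59.2 to 81.1 CPM with saline. Its level without a pump, 98.2 to 154 CPM, overlapped that with Ang/PE.

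In MCT1KO hearts, 64 of 83 were higher with Ang/PE than with saline, with a median of 0.04. No member was called by edgeR or DESeq2, while 4.46% of all genes were called by edgeR in this comparison. The unadjusted p was below 0.05 for 1 member, against 9.4% of all genes in the higher direction. That was Rpl24, with 42.8, 43.4, 38.1, 39.5 and 36.9 CPM against 32.1, 35.2, 42.3 and 30.6 CPM, a change of 0.20 (SE 0.09). Rpl22 had a change of 0.52 (SE 0.27) and Rpl22l1 of -0.86 (SE 0.45). Without MCT1KO saline replicate 3, the saline heart with the highest member share, 2 members were called higher (Rps13 and Rpl24), against 3.24% of all genes, so the members' share was below that of all genes. In the same fit Rps13 was called lower with saline than without a pump, 1 of 83 against 1.15% of all genes. The median for Ang/PE against saline was -0.05 to 0.15 when each heart was left out, so its sign depended on single hearts. With the Myl7-positive saline hearts left out, which leaves 1 MCT1KO saline heart, it was -0.27. The interaction of genotype and Ang/PE was negative for 74 of 83 with a median of -0.14. The median was -0.07 without MCT1KO saline replicate 3, -0.08 without WT Ang/PE replicate 3, -0.24 without MCT1KO Ang/PE replicate 2 and -0.05 with the Xist covariate. With the Myl7-positive saline hearts left out, the median interaction was -0.50. There were no calls by edgeR or DESeq2 (0.0% of all genes by edgeR), and 2 had an unadjusted p below 0.05 in that direction, against 6.05% of all genes. Rps24 had a term of -0.48 (SE 0.23), Rpl21 of -0.43 (SE 0.21) and Rps25 of -0.41 (SE 0.21).

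Against no pump, WT hearts with Ang/PE were lower for 82 of 83 members, with a median of -0.26. The median was -0.15 without WT no pump replicate 3 and -0.11 with GC and length offsets. None was called by edgeR or DESeq2 (0.0% of all genes by edgeR), and 19 had an unadjusted p below 0.05 against 5.11% of all genes called lower at that level. For 10 of 83 members the 3 Ang/PE hearts lay below all 4 hearts without a pump, against 7.07% of all genes. Rps10 was 24.2, 22.3 and 26.1 CPM with Ang/PE and 27.1, 29.0, 38.5 and 32.9 CPM without a pump, a change of -0.40 (SE 0.13, edgeR adjusted p 0.454). Rpl41 had a change of -0.42 (SE 0.16) and Rpl38 of -0.40 (SE 0.15). In MCT1KO hearts 62 of 83 were higher with Ang/PE, with a median of 0.05 (-0.03 to 0.15 when each heart was left out). Again edgeR and DESeq2 called none, against 0.503% of all genes called by edgeR. An unadjusted p below 0.05 was seen for 1 in each direction, against 7.01% of all genes higher and 6.09% lower. Rpl3 had a change of 0.62 (SE 0.20, edgeR adjusted p 0.156), Rpl34 of -0.61 (SE 0.29) and Rpl22l1 of -0.97 (SE 0.48).

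The paralogues included the members least like the rest of the set, although Rpl7, Rpl7l1, Rps27 and Rps27l had r of 0.71 to 0.98 with the other members. RPL3L is a striated-muscle variant of RPL3, a core protein near the peptidyl transferase centre. In WT hearts without a pump, Rpl3l was 201, 168, 149 and 182 CPM and Rpl3 107, 125, 166 and 130 CPM, so the heart with the most Rpl3 had the least Rpl3l. In WT saline hearts, Rpl3l ran from 139 to 207 CPM (median 179) and Rpl3 from 85.7 to 129 CPM (median 105). There too the heart with the least Rpl3, replicate 1 at 85.7 CPM, had a high Rpl3l of 194 CPM, and the heart with the most Rpl3 had the least Rpl3l. Over the 25 hearts, the deviations of log2 CPM from the group means ran opposite, with Pearson's r -0.734 (permutation p 2e-05, adjusted over 5 pairs 1e-04) and Spearman's rho -0.853 (permutation p 1e-05, the smallest 100000 permutations can give, adjusted 5e-05). Without the 2 hearts whose Rpl3 deviations lay farthest from the median, r was -0.737. For every pair below, the 2 hearts were likewise chosen by the gene named first, not by its partner.

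The lowest Rpl3l values were all in MCT1KO hearts. Rpl3l was 31.4 CPM in saline replicate 4, where Rpl3 was 167 CPM, and that heart also had the highest levels of the atrial gene Myl7 (1357 CPM) and the brown fat gene Ucp1 (551 CPM). It was 70.5 and 84.3 CPM in Ang/PE replicates 5 and 2, where Rpl3 was 166 and 211 CPM. Those 2 hearts had the highest levels of Myh7, the slow myosin heavy chain of the fetal and stressed ventricle, at 4667 and 3865 CPM, with Myl7 at or below 0.279 CPM in every Ang/PE heart. In the other 3 MCT1KO hearts with Ang/PE, Rpl3l was 158, 165 and 130 CPM and Myh7 639 to 1435 CPM. Rpl3l was not called in any comparison, and the part of Myh7, atrial tissue or fat in its level was not tested.

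Rpl22 and Rpl22l1 also ran opposite. RPL22L1 is a close relative of RPL22, and the RPL22 protein is known to repress the Rpl22l1 transcript. The within-group r was -0.597 (permutation p 0.00506, adjusted over 5 pairs 0.00843), rho was -0.592 (adjusted permutation p 0.00887), and r without 2 hearts was -0.616. In MCT1KO hearts with Ang/PE, Rpl22 was steady at 63.2, 59.3, 60.03, 63.4 and 61.5 CPM, while Rpl22l1 was 11.5, 28.3, 8.44, 9.42 and 11.3 CPM. In MCT1KO hearts without a pump, Rpl22 was 28.3, 64.2 and 41.5 CPM and Rpl22l1 41.1, 9.66 and 30.7 CPM, so the heart with the most Rpl22 had the least Rpl22l1. In WT saline hearts Rpl22 ran from 26.8 to 65.3 CPM and Rpl22l1 from 9.13 to 29.6 CPM. Neither gene was called in any comparison.

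The other pairs did not run opposite. Rps27 and Rps27l, the latter a p53 target, rose and fell together, with r 0.684 (adjusted permutation p 0.00567), rho 0.639 (adjusted 0.00887) and r 0.621 without 2 hearts. Rps27l was 26.3, 28.3, 32.5 and 32.7 CPM in WT hearts without a pump and 14.3 to 21.3 CPM (median 18.7) in WT saline hearts, and was called lower at -0.71 (SE 0.15, edgeR adjusted p 0.011). Rpl7 and Rpl7l1 had r 0.495 (adjusted permutation p 0.0523), rho 0.477 (adjusted 0.0369) and r 0.402 without 2 hearts. Rps4x and Rps4l had r 0.0283 (adjusted permutation p 0.896), rho 0.0992 (adjusted 0.634) and r -0.176 without 2 hearts.

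Rps3a3 and Rps3a2 followed a pattern that crossed all groups but one. Rps3a3 was 1.53 to 8.10 CPM in 8 hearts and 21.5 to 68.5 CPM in the other 17, and Rps3a2, just outside the level limit, was 0.472 to 0.902 CPM in the same 8 hearts and 4.25 to 14.5 CPM in the same 17. In WT the low hearts were 2 of 4 without a pump, 2 of 6 saline hearts and 0 of 3 Ang/PE hearts. Among MCT1KO hearts they were 1 of 3, 2 of 4 and 1 of 5 in the same order. Rps3a1, the coding gene, was 171 to 313 CPM in the 8 and 85.6 to 257 CPM in the 17, so these overlapped over all groups. Within WT saline, MCT1KO saline and MCT1KO Ang/PE hearts the low hearts had more Rps3a1 than all the others. In both groups without a pump they overlapped. These are near-identical copies, whose reads the counting could have divided, so the levels of all 3 are uncertain and their comparisons between groups are not read. What sets the 8 hearts apart was not tested.

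**Figure D5:**
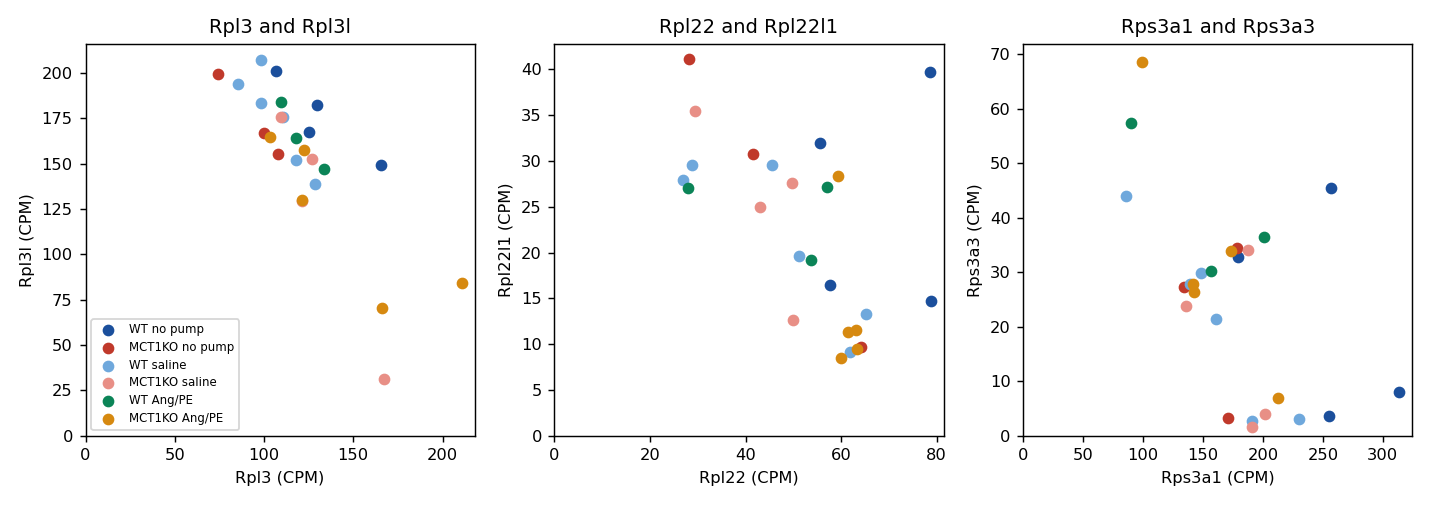
Level in CPM of 1 gene of a pair against the other, with 1 point for each of 25 hearts coloured by group: Rpl3 and Rpl3l, Rpl22 and Rpl22l1, and Rps3a1 and Rps3a3. The first and middle panels slope down (within-group r -0.734 and -0.597), and in the last panel 8 hearts lie at 1.53 to 8.10 CPM of Rps3a3, apart from the other 17.

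Other genes of the translation machinery were compared in the WT pump contrast, where all the edgeR calls of members lay. Over all genes 2.39% were called higher there and 4.22% lower, against which the counts below can be read. Among ribosomal protein genes outside the symbol pattern, Rack1, a scaffold on the small subunit, was lower with saline at -0.41 (SE 0.10, edgeR adjusted p 0.0237) and Rpl36al at -0.58 (SE 0.16, edgeR adjusted p 0.0293). Fau at -0.19 (SE 0.11), which encodes a fusion with a ubiquitin-like protein, was not called. Of 32 elongation and initiation factor genes and other TOP mRNAs, 7 were lower and 1 higher with a median of -0.06. Eif3e was lower at -0.62 (SE 0.13) and Tpt1, a TOP mRNA, at -0.55 (SE 0.12). Eef1a1 at -0.30 (SE 0.23) and Eef2 at 0.04 (SE 0.10) were not called.

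Of 43 ribosome biogenesis genes, 3 were higher and 2 lower with a median of -0.01, among them Nop10, of the box H/ACA particle, at -0.83 (SE 0.16) and Rbm19 at 0.40 (SE 0.08). Of 20 genes of the mTOR pathway that acts on TOP mRNAs, 4 were higher and 1 lower with a median of 0.11: Rptor at 0.40 (SE 0.09), Mtor at 0.44 (SE 0.11), Larp1 at 0.36 (SE 0.10) and Tsc2 at 0.35 (SE 0.11) rose, and Sesn1 at -0.58 (SE 0.17) fell. Of 9 snoRNA host genes, which are noncoding TOP RNAs, 1 was lower (Snhg1 at -0.72, SE 0.19), all 9 were negative, and the median was -0.46. Of 78 mitochondrial ribosome genes, 13 were lower and 0 higher with a median of -0.15, led by Mrpl32 at -0.60 (SE 0.13) and Mrpl42 at -0.75 (SE 0.16). These lists were assembled with results on the ribosomal proteins known, and their medians describe these hearts only.

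With Ang/PE against saline in MCT1KO hearts, where 1.75% of all genes were called higher and 2.7% lower, Eif3a and Eif3b, subunits of the initiation factor that binds the small subunit, were higher at 0.35 (SE 0.08) and 0.35 (SE 0.09), and the nucleolar helicase Ddx21 at 0.38 (SE 0.09). Ddit4, an inhibitor of mTOR signalling, was higher at 1.64 (SE 0.43) and Deptor, an mTOR-binding inhibitor, lower at -0.81 (SE 0.22). Fau, Rpl36al and Rack1 had changes of -0.02, 0.02 and 0.06 there, and none was called, as for the 83 members.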

How the data were processed

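RNA was isolated from 25 hearts, ribosomal RNA was depleted and stranded libraries were made, per the labels' protocols. The authors deposited 1 table of raw counts per Ensembl gene, with 1 column per library, and 0 columns were left unmatched. The submitters' processing notes name cutadapt 1.16, STAR 2.7.9a, featureCounts 1.6.3, DESeq2 1.42.1 and build GRCm39 (mm39), without role or order. Whether counting used strand, and how reads of near-identical copies were counted, is not given in the sources used here.

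Symbols were found for 51948 of 56941 genes. Genes without one hold 0.778% of the counts. GC content and length are of the longest GENCODE M21 transcript. Start sequences are from RefSeq (GRCm38.p6) and were matched by symbol, and no coordinate was moved between builds.

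Tests used edgeR 4.0.16 in R 4.3.3: filterByExpr (17682 genes, all 83 members), TMM factors, and 1 robust quasi-likelihood fit of 6 groups with 19 residual degrees of freedom (biological coefficient of variation 0.196). P-values were two-sided and adjusted by Benjamini-Hochberg over all tested genes within each of 11 comparisons. CPM use TMM-scaled library sizes, and log2 CPM a prior count of 2. Paralogue correlations used deviations from group means, permuted within groups 100000 times. The fit was also run on simulated data with known changes in MCT1KO hearts with Ang/PE only. Genes were drawn independently there, so the simulation does not bear on shifts shared by the members or on the pump comparisons.

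Alternatives were RLE scaling, DESeq2 1.42.0, no count filter, a fit restricted to the groups compared, a replicate block, Xist, atrial and fat scores as covariates, GC and length offsets (mgcv 1.9.3) without and with the block, removal of mitochondrial genes or of the members from scaling, and leaving out each heart. Leaving out the saline hearts with Myl7 above 10 CPM was added after seeing the data.

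The members, gene lists and tests were chosen with earlier results of these data known. Named genes were the paralogues and stalk genes, the 5 highest and 3 lowest, the 5 called of smallest p per comparison (otherwise the 3 of smallest p), the 3 most and 3 least variable, those at the level limit, and up to 2 called genes per related list. Other named genes were chosen after their values were seen. Values of single genes for 2 ribosomal protein genes, 1 of them a member, are not reported here, and the counts and medians over the members include that member.

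Between replicate libraries the chi-square per degree of freedom was at least 3.33 over 43 pairs, so none was counted as a copy. Nothing else describes the replicates, so p-values measure the spread between these hearts.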

Additional observations from a re-analysis of the deposited data

Results flagged for a closer look

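In groups of 4 to 6 hearts, the highest or lowest heart was compared with the rest by Dixon's ratio of gap to range, and 8 of 84 such tests passed its 95% limit, where chance gives about 1 in 20. Of the summed member share, MCT1KO saline replicate 3 stood high at 1.163% (others 0.979% to 1.01%), and so did MCT1KO Ang/PE replicate 2 at 1.23% (others 0.842% to 0.901%). On the log2 CPM scale, MCT1KO saline replicate 3 also stood high in Rpl36a (5.12, others 4.51 to 4.61) and Rps27l (4.82, others 4.22 to 4.28). That heart was the only one of its group with Myl7 at 0, and its mitochondrial share was 17.3%. MCT1KO Ang/PE replicate 2 stood high in Rplp1 (7.95, others 7.39 to 7.47) and Rpl22l1 (4.83, others 3.10 to 3.54). WT no pump replicate 3 stood high in Rpl7l1 (5.19, others 5.14 to 5.15), by little, since the others agree closely. WT saline replicate 3 stood low in Rpl31 (5.76, others 6.26 to 6.49).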

How the results depend on the processing

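No called value changed direction under the alternatives run, and 454 alternative counts and medians stayed within 1.5 times (counts) or the 0.169 log2 units of spread between hearts (medians), against 22 that did not. The reported count was 0 in every comparison but the WT pump comparison. Many of the counts that stayed therefore compare 0 with 0. Some medians near 0 changed sign. In the WT pump comparison, the 59 calls became 34 with the replicate block and 36 with the Xist covariate. They became 20 with GC and length offsets, 0 with these offsets and the replicate block, and 0 with atrial and fat covariates. With the Myl7-positive saline hearts left out, fewer hearts remained and the median was -0.52. The causes of the losses under any of these fits were not tested. Of these fits, the share of all genes called is given only for the GC and length offsets. The losses in this comparison are therefore not read as particular to the members. Leaving out each heart gave 6 to 66 calls there, 0 to 2 for Ang/PE against saline in MCT1KO, 0 to 1 for saline against no pump in MCT1KO (Rps13, without MCT1KO saline replicate 3), and 0 to 17 for the pump interaction. DESeq2 called 28 members between genotypes without a pump, 3 for Ang/PE against saline in WT and 5 for the pump interaction, where edgeR called 0. Fitting only the groups compared gave 12 for Ang/PE against saline in WT. The median between genotypes without a pump was -0.31 with GC and length offsets and the replicate block. The block changed no other count by over 1.5 times. The numbers come from the titles and share nothing else: hearts bearing one number in different groups (52 pairs) departed from their group means with a mean correlation of 0.0094 (-0.232 to 0.405). With the Myl7-positive saline hearts left out, medians were 0.36 for genotype with saline, -0.27 for Ang/PE against saline in MCT1KO, 0.31 for saline against no pump in MCT1KO, -0.50 for the Ang/PE interaction (-0.05 with the Xist covariate) and 0.81 for the pump interaction, with 1 MCT1KO saline heart left, assumed to vary like the other groups. For single genes, 4624 values kept their size and call, 46 lost and 24 gained a call, and 66 moved. Depth limits the members with the lowest counts, such as Rps3a3 at 26, and the counting of near-identical copies is not known.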
